A study of Homo sapiens with 2 samples.

Results

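The genes described are those of 10 enzymes of glycolysis and lactate formation, chosen by name and taken in pathway order: GPI, ALDOA, TPI1, GAPDH, PGK1, PGAM1, ENO1, PKM, LDHA and LDHB. Each matched 1 of the 57736 genes in the deposited table. Glycolysis splits glucose into pyruvate in the cytosol and gains ATP and NADH on the way, and lactate dehydrogenase then turns pyruvate into lactate and restores NAD+. These enzymes are abundant in cultured carcinoma cells, which draw much of their ATP from the pathway, and several of their genes are textbook targets of the hypoxia-inducible factors (HIF) and of MYC. GAPDH is also a common reference gene.

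Expression was measured in A549 cells, a human lung adenocarcinoma line of epithelial origin, labelled wild type. The study used cells carrying a vimentin RFP reporter. There were 2 groups of 1 library each: cells with epithelial to mesenchymal transition (EMT) induced by TGF-beta, called the EMT-labelled library below, and cells with no treatment, called the untreated library. AmpliSeq Transcriptome libraries, in which short targeted segments of genes are amplified by multiplex PCR, were made from 10 ng of total RNA. The sources used here give neither dose nor duration of TGF-beta.

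The libraries held 597133 counts (EMT-labelled) and 674784 counts (untreated). With 1 library per group no difference has a replicate check and no p-value is given. Intervals are exact for the counts and cover counting error of reads only. Several PCR reads can copy 1 molecule when no molecular identifiers are counted, so the intervals may be too narrow for molecules. The label was checked with 10 genes of the TGF-beta response and of EMT. Of these, 6 were lower by 2-fold or more in the library labelled TGF-beta, and 1 was higher by that much. Of all genes compared, 26.7% were lower and 22.0% higher by that much. VIM, the gene the reporter follows, had 56 counts in the EMT-labelled library against 452 in the untreated library. The 1 higher gene was CDH1, an epithelial marker. It had 4 against 1 counts, a difference within counting error, so it did not speak for the label. With the libraries scaled over all genes, most of the 10 genes thus went against the label. The collagen gene COL1A1, which TGF-beta is also known to induce, was higher (356 against 196). The log2 ratio of VIM was -2.68 (-3.10 to -2.27), above the median of -3.42 of the reference genes described below. Relative to that median VIM was higher. The 10 genes ranged from -4.49 to 2.34, on both sides of it. The labels therefore serve below only as names of the libraries. Of 13 epithelial and A549 markers, 11 passed the filter on low counts, with 5 at least 2-fold lower and 3 higher. The keratin genes KRT7 and KRT8 had 32 against 179 and 16 against 53 counts, and KRT19 had 45 against 51. KRT18, EPCAM and CDH1 were barely counted, with 0 against 3, 7 against 4 and 4 against 1. Of the fibroblast markers 2 of 5 were higher and 0 lower, of the endothelial markers 1 of 4 higher and 0 lower, and of the leukocyte and blood markers 2 of 5 lower and 1 higher. Beside 26.7% lower and 22.0% higher of all genes compared, numbers this small show nothing about these lists. Of the higher markers, PDGFRA had only 3 against 1 counts and CDH5 5 against 3. Summed counts of these 3 lists were 414 against 267, 43 against 42, and 15 against 40, with LUM and LYZ at 0 in both libraries. COL1A1 alone gave 356 and 196 of the fibroblast counts, a log2 ratio of 1.20 (95% counting interval 0.94 to 1.46). Their part in the results was not tested.

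Glycolytic enzyme genes were lower in the library labelled TGF-beta EMT. Of the 10 genes, 8 were at least 2-fold lower, 0 were 2-fold higher, and GPI and PKM lay between. Their median log2 ratio (EMT-labelled over untreated library, after TMM scaling, which uses a trimmed mean of M-values) was -3.16, with single genes from -5.52 to -0.08. Together they held 546 counts, or 0.0914% of the EMT-labelled library (exact 95% binomial interval 0.0839% to 0.0994%), and 5212 counts, or 0.772% of the untreated library (0.752% to 0.794%). In bulk RNA, fewer cells with a transcript and less of the transcript per cell cannot be told apart.

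Most genes did not share this difference. A value is given as CPM, the count per 1000000 of the TMM-scaled library total. Of the 15401 genes with at least 5 CPM in 1 library, 26.7% were lower by 2-fold or more and 22.0% were higher, around a median log2 ratio of 0.01. For 8-fold these shares were 5.30% lower and 1.90% higher, whereas 5 of the 10 enzyme genes (TPI1, GAPDH, PGK1, PGAM1 and LDHA) were 8-fold lower and 0 higher. Well counted genes were more often low. From 20 CPM upwards 36.0% of 5341 genes were 2-fold lower and 18.5% higher, with 12.4% and 3.41% at 8-fold. The enzyme genes at that level were 2-fold lower in 8 of 9 and 8-fold lower in 5 of 9. From 100 CPM upwards 34.3% of 1014 genes were 2-fold lower and 17.4% higher, with 19.2% and 6.41% at 8-fold, against 6 and 4 lower of 7 enzyme genes. Lower genes made up 54.8% of the 2-fold calls over all genes with TMM. With upper-quartile scaling, where 15401 genes also passed, they made up 49.6% (3887 lower and 3957 higher). With DESeq2 size factors they made up 65.9% (4753 lower and 2463 higher), but only 14067 genes then passed the filter of 5 CPM. The balance over all genes thus turned with the scaling, and with DESeq2 factors the genes compared changed too. With the DESeq2 factors the median of the genes compared was -0.30 and that of the enzyme genes was -3.38, and GPI lay past 2-fold.

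**Figure D1:**
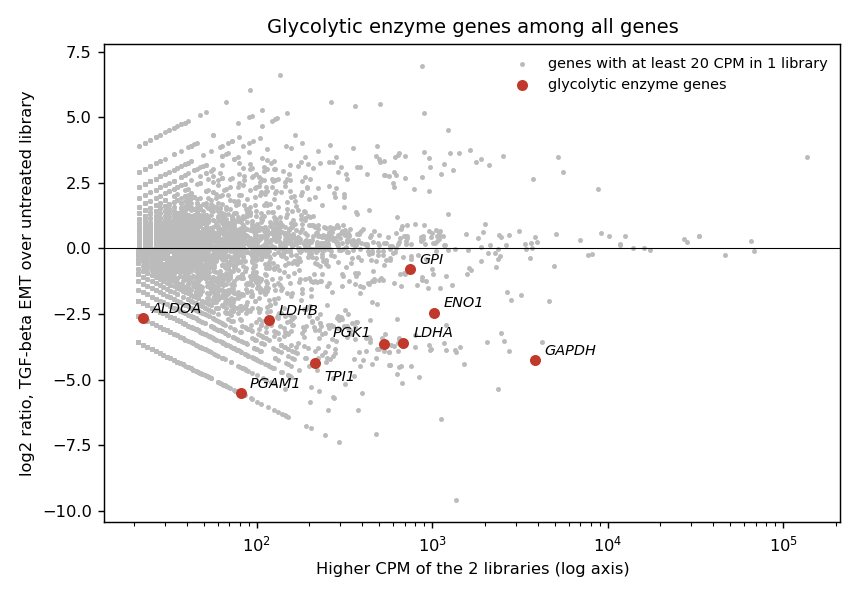
Log2 ratio of the EMT-labelled over the untreated library (vertical axis) against the higher CPM of the 2 libraries (horizontal log axis). Grey points are genes with at least 20 CPM in 1 library, and red points are the 9 glycolytic enzyme genes at that level, of which all but GPI lie below a log2 ratio of -2.4.

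GPI, glucose-6-phosphate isomerase, makes fructose-6-phosphate and stood apart from the other well counted enzymes. The gene (ENSG00000105220) lies on hg19 chromosome 19 from 34850385 to 34893061, plus strand, the build used for all gene positions here. GPI had 246 counts in the EMT-labelled library and 535 in the untreated library, or 435 and 750 CPM. Its log2 ratio was -0.79 (95% counting interval -1.01 to -0.56). GPI therefore made up 45.1% of the counts of the 10 genes in the EMT-labelled library and 10.3% in the untreated library.

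The counts of GPI lay at different places in the 2 libraries. Overlapping exons of a gene were joined into exonic regions, which gave 14 regions for GPI, numbered from its 5' end. Region 1 holds a 127-base exon (34850385 to 34850511) that opens transcript ENST00000587521, and only 3 of the 17 GPI transcripts in the table begin in that region. The next region lies 4843 bases downstream. Region 1 had 232 counts in the EMT-labelled library and 199 in the untreated library, a log2 ratio of 0.56 (0.28 to 0.84). All other regions together had 13 against 336, a log2 ratio of -4.36 (-5.28 to -3.56), or 20.5-fold lower. Without region 1 the ratio of GPI lay beside those of TPI1 (-4.35) and GAPDH (-4.25). Region 1 held 94.5% of the gene's counts in the EMT-labelled library against 37.2% in the untreated one. This split was made after the values were seen.

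The exon with most of the remaining GPI counts is coding. It is shown here because it and region 1 gave opposite directions within the same gene. The exon (chr19:34868640-34868761, hg19, plus strand) had 7.87 expected counts in the EMT-labelled library and 238 in the untreated library. Its sequence, taken from the GENCODE transcript with the same identifier (ENST00000591204) and exon length, with no part in capitals, is:
GPI exon: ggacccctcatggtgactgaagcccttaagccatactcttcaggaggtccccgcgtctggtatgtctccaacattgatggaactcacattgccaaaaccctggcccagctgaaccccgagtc

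ALDOA, aldolase A, cleaves fructose-1,6-bisphosphate, and TPI1, triosephosphate isomerase, interconverts the products. ALDOA (ENSG00000149925, chromosome 16, 30064411 to 30081778, plus strand) held 2 counts in the EMT-labelled library against 16 in the untreated library. Its log2 ratio of -2.66 has a wide counting interval, -5.83 to -0.58. TPI1 (ENSG00000111669, chromosome 12, 6976283 to 6980112, plus strand) held 6 against 154 counts, or 10.6 against 216 CPM, with a log2 ratio of -4.35 (-5.81 to -3.19). Both genes were lower beyond counting error, but ALDOA was too thinly counted for its size to be placed.

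GAPDH, glyceraldehyde-3-phosphate dehydrogenase, carries out the step that forms NADH. The gene (ENSG00000111640, chromosome 12, 6643093 to 6647537, plus strand) held 115 counts in the EMT-labelled library and 2764 in the untreated library, 204 and 3876 CPM, and was 19.0-fold lower (log2 ratio -4.25, -4.53 to -3.98). Its share of the counts of the 10 genes was 21.1% in the EMT-labelled library and 53.0% in the untreated library. PGK1, phosphoglycerate kinase, which forms the first ATP, had 24 against 377 counts (ENSG00000102144, chromosome X, 77320685 to 77384793, plus strand). It was 12.4-fold lower, with a log2 ratio of -3.64 (-4.30 to -3.04).

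PGAM1, phosphoglycerate mutase (ENSG00000171314, chromosome 10, 99185917 to 99193198, plus strand), had 1 count in the EMT-labelled library against 58 in the untreated library (log2 ratio -5.52, -10.85 to -2.99). With that single count the size is known only within this interval. ENO1, enolase, differed by less than TPI1, GAPDH, PGK1, PGAM1 and LDHA beyond counting error, but its difference could not be told from those of ALDOA and LDHB. The gene (ENSG00000074800, chromosome 1, 8921061 to 8939308, minus strand) had 107 against 735 counts, 189 against 1031 CPM, and was 5.44-fold lower (log2 ratio -2.44, -2.75 to -2.15). PKM, pyruvate kinase (ENSG00000067225, chromosome 15, 72491370 to 72524164, minus strand), had 3 against 4 counts, and a difference was not detectable at this depth (log2 ratio -0.08, -2.85 to 2.48).

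The lactate dehydrogenase subunits were both lower. LDHA, the subunit of muscle and of most tumour cells, had 32 counts in the EMT-labelled library and 485 in the untreated library (ENSG00000134333, chromosome 11, 18415935 to 18429972, plus strand), and was 12.0-fold lower (log2 ratio -3.59, -4.15 to -3.07). LDHB, the subunit of heart, had 10 against 84 (ENSG00000111716, chromosome 12, 21788276 to 21910791, minus strand), a log2 ratio of -2.73 (-3.85 to -1.78). The LDHA count per LDHB count was 3.20 in the EMT-labelled library and 5.77 in the untreated library. This change, a log2 difference of -0.85, was within counting error (-1.98 to 0.39), and the interval holds a shift of over 2-fold away from LDHA as well as none.

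**Figure D2:**
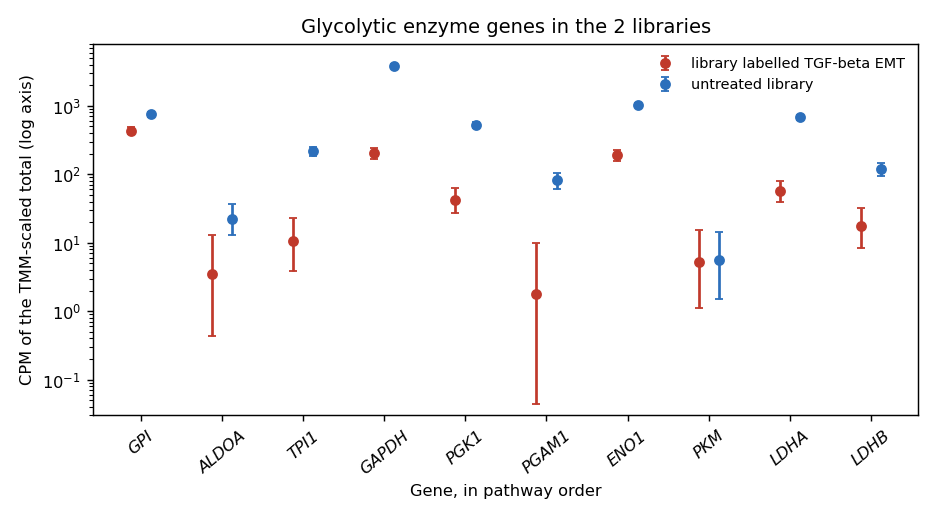
CPM of the TMM-scaled total (log axis) for each gene in pathway order, with exact 95% Poisson intervals. The EMT-labelled library (red) lies below the untreated library (blue) with no overlap of intervals in every gene except PKM (by a narrow margin in ALDOA). For PKM the points nearly coincide at 5.31 and 5.61 CPM.

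**Figure D3:**
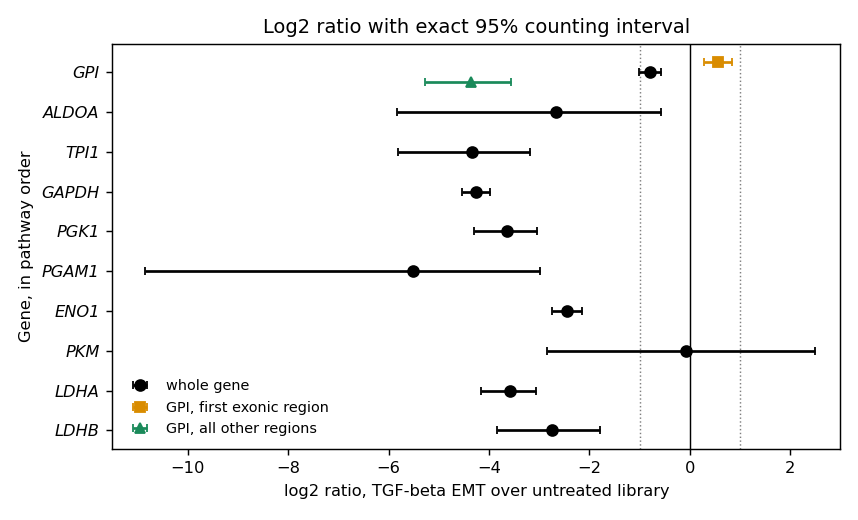
Log2 ratio of the EMT-labelled over the untreated library for each gene, with exact 95% counting intervals, and dotted lines at 2-fold. For GPI the whole gene (-0.79) is set beside its first exonic region (0.56, square) and all its other regions (-4.36, triangle).

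The enzyme genes did not all differ by the same factor. Ratios between genes within a library do not depend on scaling. Of the 45 pairs of the 10 genes, the exact 95% interval of the change in their ratio excluded 0 in 19, with no adjustment for the number of pairs. Of these pairs 7 held GPI, and 6 held ENO1. The ENO1 count per GAPDH count was 0.930 in the EMT-labelled library and 0.266 in the untreated library, a log2 difference of 1.81 (1.39 to 2.22). The PGK1 and TPI1 counts per GAPDH count did not change beyond counting error, with log2 differences of 0.61 (-0.11 to 1.28) and -0.09 (-1.59 to 1.10). That of LDHA lay just beyond it, at 0.67 (0.03 to 1.26).

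Other reference genes were low as well. Of 16 such genes 11 passed the filter, and among these 8 were lower by 8-fold or more and 0 were 2-fold higher, with a median log2 ratio of -3.42. Over all genes 5.30% were 8-fold lower, and 19.2% from 100 CPM upwards. The other 3 differed by less than 2-fold: POLR2A (108 against 169 counts, log2 ratio -0.31), IPO8 (30 against 44, -0.22) and YWHAZ (7 against 15, -0.76). RPLP0, a ribosomal stalk protein, had 39 counts against 701 in the untreated library. TFRC, the transferrin receptor, had 0 against 64. With the 0 set to a floor of 3 counts its log2 ratio was -4.08, and its counting interval reached up to -3.74. B2M, a subunit of MHC class I molecules, had 3 against 46. Summed counts of the 10 enzyme genes per count of the 16 reference genes were 1.15 in the EMT-labelled library and 1.01 in the untreated library, a log2 difference of 0.18 (-0.01 to 0.37). Without GPI the same ratio was 0.630 against 0.906, a log2 difference of -0.52 (-0.75 to -0.30). ACTG1 alone gave 200 of the 476 reference counts in the EMT-labelled library and 2998 of the 5160 in the untreated library.

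Within the genes, nearly all untreated counts lay in 1 exonic region or in a pair of regions with no other counted region between them (regions 1 and 3 in ENO1), except in GPI, where such a pair held 59.9%. These main regions were chosen on the untreated library after the values were seen, which favours higher untreated counts in them, so the comparison is a description. The main regions of the 10 genes summed to 297 expected counts in the EMT-labelled library and 4984 in the untreated library, a log2 ratio of -3.73 (-3.91 to -3.56). Counts outside them summed to 249 and 228, a log2 ratio of 0.46 (0.20 to 0.73), and GPI alone gave 234 and 214.5 of these. In the other 9 genes, 15.0 and 13.3 lay outside.

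LDHA and ENO1 showed the same contrast at low counts. LDHA region 1, its 5' end, had 6 counts in the EMT-labelled library and 7 in the untreated library, whereas its main region had 26 and 478. The 3' terminal region of ENO1 had 5 and 4, whereas its region 1 had 21.6 and 300.2 (log2 ratio -3.43, -4.13 to -2.81) and its region 3 had 80.8 and 431 (-2.08, -2.44 to -1.73). The pair of ENO1 regions thus differed from each other by more than their intervals. The deposited table names no amplicon positions, so the regions that the kit targets are not known here.

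**Figure D4:**
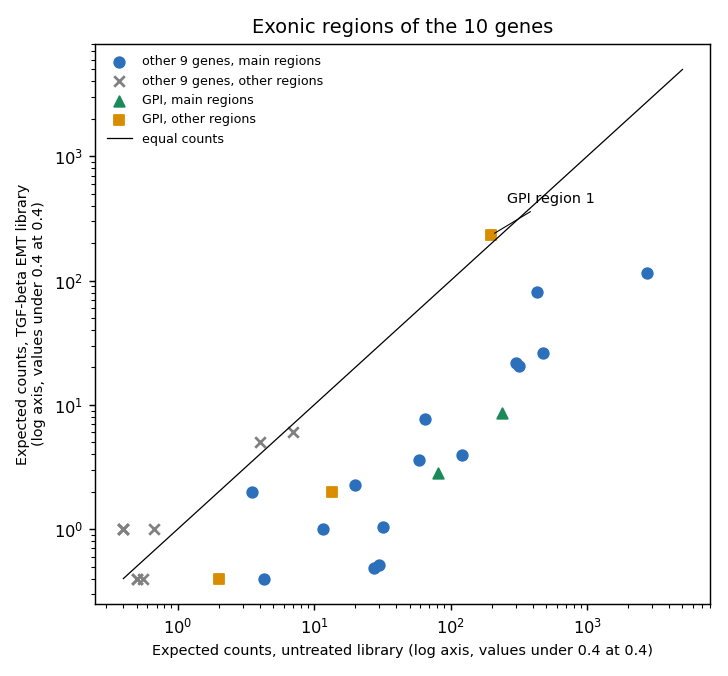
Expected counts of each exonic region in the EMT-labelled library against the untreated library (log axes, values under 0.4 drawn at 0.4). Main regions of the other 9 genes (blue) and of GPI (green) lie below the line of equal counts, whereas GPI region 1 (orange, 232 against 199), ENO1 region 14 and LDHA region 1 (grey crosses) lie near it.

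Glycolytic enzyme genes have many processed pseudogenes, intronless copies of the spliced transcript, to which a short read may also align. The table holds 96 such genes named after the 10 enzymes, 46 with a count above 0, and their counts summed to 200 in the EMT-labelled library and 107 in the untreated library. GAPDH pseudogenes summed to 95.8 and 73.0 over 58 genes, and adding them to GAPDH changed its log2 ratio from -4.25 to -3.41. PKM pseudogenes summed to 87.7 and 11.7, against 3 and 3.5 expected counts in PKM itself. Adding them turned the PKM log2 ratio to 2.94, and adding those of PGAM1 moved its ratio from -5.52 to -2.76. Sequence similarity bears on whether reads can be divided between a gene and its copies. For 3 genes a wholly coding exon is shown, chosen for its untreated counts among the 3 fullest exons of the gene. It was read from the GENCODE transcript of the same identifier and exon length, and capitals mark bases that differ from the most similar pseudogene of the same enzyme there:
TPI1 exon 2: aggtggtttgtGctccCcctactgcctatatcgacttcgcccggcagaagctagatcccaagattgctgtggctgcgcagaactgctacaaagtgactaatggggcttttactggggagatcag
GAPDH exon 6: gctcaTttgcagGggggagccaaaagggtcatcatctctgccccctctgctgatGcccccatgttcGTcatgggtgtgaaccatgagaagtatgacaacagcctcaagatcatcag
LDHA exon 3: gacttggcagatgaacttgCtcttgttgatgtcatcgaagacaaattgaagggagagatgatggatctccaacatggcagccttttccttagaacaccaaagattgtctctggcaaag

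The GAPDH exon (chr12:6646267-6646382, hg19) differs from GAPDHP63 at 5 of its 116 bases and by 1 further base that only the pseudogene holds, an identity of 94.8%, and had 88.9 and 2240 expected counts in the EMT-labelled and untreated libraries. GAPDHP63 had 0 and 4.03. The TPI1 exon (chr12:6978028-6978151) differs from TPI1P1 at 2 of 124 bases, with 1.03 and 31.9. The LDHA exon (chr11:18420978-18421095) differs from LDHAP4 at 1 of 118 bases, with 7.95 and 138, while LDHAP4 had 0 in both libraries. Counts of these genes are therefore uncertain by what the deposited counting assigned to near-identical copies. In the untreated library the copies held more counts than the gene for PKM only. In the EMT-labelled library they did so for PKM and for PGAM1 (6 against 1), and equalled ALDOA (2 and 2). Genes that overlap the 10 enzyme genes held at most 1 count each.

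The regulated entry steps, other isoenzymes, carriers, flux regulators and pentose phosphate genes had small numbers lower and higher, near the 26.7% and 22.0% of all genes, so their counts show nothing about these lists and single genes are given as values. Hexokinases and phosphofructokinases commit glucose to the pathway. Of 9 such genes 8 passed the filter, with 3 at least 2-fold lower, 1 higher and a median log2 ratio of -0.58. HK2, the hexokinase of many tumour cells, had 2 counts in the EMT-labelled library against 20 (log2 ratio -2.99, -6.13 to -0.94). PFKL had 8 against 25 (-1.31, -2.67 to -0.11), and PFKM had 12 against 4 (1.92, 0.20 to 4.01). Among 14 other isoenzymes of the enzymes above, 6 passed, with 2 lower, 1 higher and a median of -0.35. ENO2, the neuronal enolase, had 11 against 41 (-1.56, -2.67 to -0.58).

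Sugar enters and lactate leaves through membrane carriers. Of 17 carrier genes 9 passed, with 3 lower, 1 higher and a median log2 ratio of -0.58. SLC2A1, the glucose transporter GLUT1, had 35 counts in the EMT-labelled library against 226 (-2.36, -2.91 to -1.84). SLC16A1, the lactate carrier MCT1, had 1 against 15 (-3.57, -8.97 to -0.87), and BSG, the chaperone of these carriers, had 52 against 154 (-1.23, -1.71 to -0.77). SLC16A3, the lactate exporter MCT4, is named after its values were seen because it is well counted and differs from these: it had 874 against 1148, a log2 ratio of -0.06 (-0.19 to 0.07). Genes that set the flux, the PFKFB and pyruvate dehydrogenase kinase families and their partners, had 4 of 10 lower, 3 higher and a median of 0.26. Of these only PFKFB3 reached 20 CPM in 1 library, and it went against that median, with 5 against 21 counts (-1.73, -3.50 to -0.29).

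Of the branches off glycolysis, the serine and glycerol list was more often low than all genes, of which 26.7% were lower and 22.0% higher. In the pentose phosphate pathway, which supplies NADPH and ribose, 2 of 6 genes were lower, 0 higher, and the median log2 ratio was -0.62. TALDO1, transaldolase, had 4 counts in the EMT-labelled library against 47 (-3.22, -5.15 to -1.77), and PGD, the second NADPH-forming dehydrogenase, had 8 against 92 (-3.19, -4.44 to -2.15). Serine and glycerol branches with the NADH shuttles had 6 of 9 lower, 0 higher and a median of -2.99. SHMT2, the mitochondrial serine hydroxymethyltransferase, had 1 against 30 (-4.57, -9.92 to -1.98). GPD2 and GOT1, members of the NADH shuttles, had 1 against 15 each (-3.57, -8.97 to -0.87).

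Genes downstream of pyruvate and those of glucose storage were more often lower than higher. Of all genes compared, 26.7% were lower and 22.0% higher. Several of the lower calls in these lists rest on 3 counts or fewer in the EMT-labelled library, with intervals that include 0. Pyruvate oxidation and the citric acid cycle had 11 of 17 genes lower, 3 higher and a median log2 ratio of -1.37. PDHX, a pyruvate dehydrogenase component, had 2 counts in the EMT-labelled library against 16 (-2.66, -5.83 to -0.58), and IDH3G, an isocitrate dehydrogenase subunit, had 6 against 22 (-1.54, -3.13 to -0.19). PC, pyruvate carboxylase, had 12 against 5 (1.60, -0.01 to 3.46). Gluconeogenesis and glycogen genes had 6 of 10 lower, 0 higher and a median of -1.26. GBE1, the glycogen branching enzyme, had 2 against 17 (-2.75, -5.91 to -0.68), G6PC3 had 13 against 52 (-1.66, -2.67 to -0.77) and the phosphorylase gene PYGB had 20 against 55 (-1.12, -1.94 to -0.36).

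Targets of HIF outside glycolysis, with the HIF genes themselves, had 14 of 20 lower, 2 higher and a median log2 ratio of -2.07. DDIT4, an inhibitor of mTOR signalling, had 3 counts in the EMT-labelled library against 197 (-5.70, -7.99 to -4.13). ANGPTL4, a lipoprotein lipase inhibitor that is also a TGF-beta target, had 3 against 146 (-5.27, -7.56 to -3.69), and NDRG1 had 21 against 407 (-3.94, -4.65 to -3.31). The 2 higher genes are named after their values were seen. EGLN1 had 33 against 14 (1.57, 0.63 to 2.59), and VEGFA had 21 against 9 (1.56, 0.37 to 2.87). HIF1A had 0 against 2 counts, which gives no ratio. Over these 9 lists of glucose metabolism and HIF, 51 of 95 genes were lower and 11 were higher (median -1.23), beside 26.7% and 22.0% of all genes. List sizes are small and several members rest on fewer than 10 counts.

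**Figure D5:**
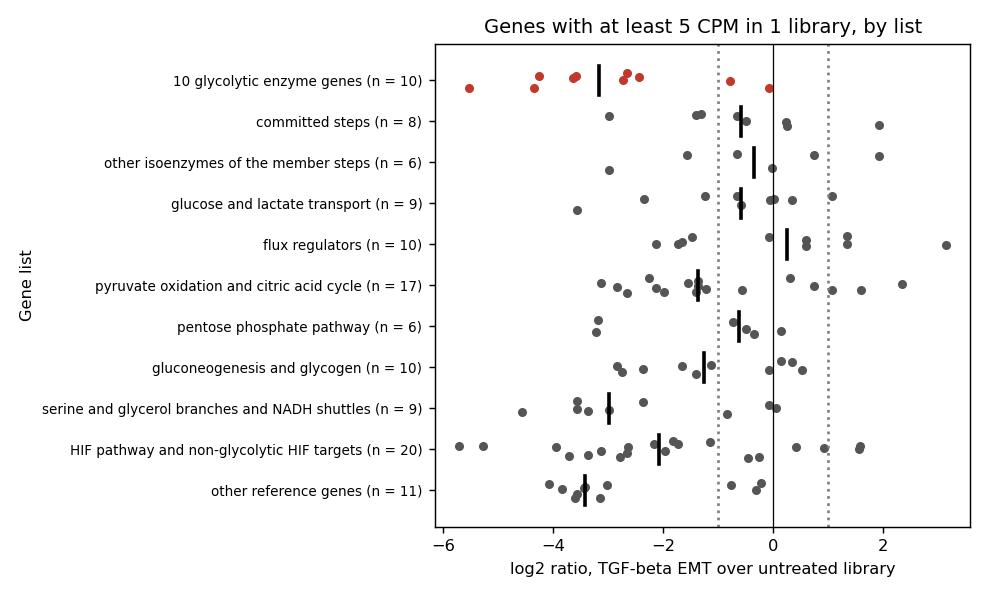
Log2 ratio of each gene with at least 5 CPM in 1 library (points, jittered vertically), by list, with the list median as a bar and dotted lines at 2-fold. The 10 glycolytic enzyme genes (red, median -3.16) and the other reference genes (-3.42) have the lowest medians of the lists plotted, and the flux regulators have the highest (0.26).

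Because the enzyme genes were low together, their promoters were read for shared motifs. RefSeq start sites gave 14 windows of 250 bases upstream for the 10 genes (GRCh38.p14), with several starts in LDHA, TPI1 and ALDOA. Both strands were searched, and matches may overlap. ACGTG or GCGTG, the core to which HIF binds, was in 10 of 14 windows, against 43.2% of the 35116 windows in the table. CACGTG, the E-box bound by MYC with MAX, which counts as a pair of ACGTG matches, was in 3 of 14 windows (ALDOA, GAPDH and LDHA), against 6.34% of all windows. GGGCGG, bound by SP1, was in 10 of 14 windows against 42.6%, and TATAAA was in 1 of 14, that of LDHB, against 10.7%. A match is a description of the letters and not a bound site.

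LDHA and PGK1 held the most HIF core matches in a window, 5 and 3, whereas LDHB, PGAM1 and PKM held 0. The 5 matches of LDHA include 2 CACGTG, each counted on both strands. As separate stretches, shown in capitals, LDHA holds no more than PGK1. The 2 matches of GAPDH are both strands of 1 CACGTG, whereas the 2 of ENO1 are separate GCGTG stretches. Promoters of 4 well counted enzyme genes are shown, with ACGTG and GCGTG on either strand in capitals (CACGT and CACGC as read on the reverse strand), since these genes were lower together, ENO1 by less than the other 3:
LDHA (chr11:18394313-18394562, plus strand): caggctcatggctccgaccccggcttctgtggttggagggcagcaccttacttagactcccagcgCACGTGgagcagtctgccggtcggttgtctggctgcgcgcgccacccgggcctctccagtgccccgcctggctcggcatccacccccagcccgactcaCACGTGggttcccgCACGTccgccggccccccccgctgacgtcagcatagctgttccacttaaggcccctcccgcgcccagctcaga
PGK1 (chrX:78103998-78104247, plus strand): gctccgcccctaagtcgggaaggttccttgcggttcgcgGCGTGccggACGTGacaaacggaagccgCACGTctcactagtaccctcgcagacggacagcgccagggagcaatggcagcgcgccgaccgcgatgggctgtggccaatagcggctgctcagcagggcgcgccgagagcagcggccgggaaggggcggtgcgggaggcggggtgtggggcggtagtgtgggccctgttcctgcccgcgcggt
GAPDH (chr12:6535014-6535263, plus strand): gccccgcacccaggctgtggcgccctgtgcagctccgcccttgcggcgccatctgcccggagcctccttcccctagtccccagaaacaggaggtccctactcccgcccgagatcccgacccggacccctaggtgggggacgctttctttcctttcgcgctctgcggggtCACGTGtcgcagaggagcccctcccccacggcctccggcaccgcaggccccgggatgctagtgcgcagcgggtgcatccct
ENO1 (chr1:8878687-8878936, minus strand): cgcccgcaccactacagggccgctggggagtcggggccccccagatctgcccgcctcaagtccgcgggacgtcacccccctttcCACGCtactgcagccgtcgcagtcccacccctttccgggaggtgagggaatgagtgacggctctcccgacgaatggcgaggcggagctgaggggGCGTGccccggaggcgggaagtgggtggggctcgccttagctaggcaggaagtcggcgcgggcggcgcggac

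GAPDH and ENO1, with 2 core matches each, had log2 ratios of -4.25 and -2.44, which differ beyond counting error. LDHA and PGK1, with 5 and 3 matches, had -3.59 and -3.64, a difference within counting error. LDHB, PGAM1 and PKM, with 0, had -2.73, -5.52 and -0.08. Whether the number of cores bears on these ratios was not tested.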

How the data were processed

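AmpliSeq Transcriptome libraries of 2 A549 samples were analysed, 1 labelled as TGF-beta-induced EMT and 1 untreated. The authors deposited expected counts, estimates that may be fractional, without normalization for 57736 genes, with transcript and exon entries. The submitters' processing notes list hg19 and DESeq, with no role stated. Aligner, counting program and use of strand: not given in the sources used here.

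Gene counts were rounded and scaled with TMM in edgeR 4.0.16 (R 4.3.3; factor 0.946 for the EMT-labelled library, 1.06 for the other). Genes with at least 5 CPM in 1 library were compared by the log2 ratio without a pseudocount, and a count of 0 was set to a floor of 3 counts, 5.31 and 4.21 CPM. Ratio intervals (Clopper-Pearson, 95%) condition on the sum of both counts. Ratios of ratios used exact conditional odds ratio intervals in scipy 1.17.1. The ratio calculation was tested on simulated data.

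The members and lists were chosen with earlier results of these data known. Of 203 listed genes 202 were matched, by symbol or older symbol. Named are the 10 enzymes, SLC2A1, HIF1A and, of each other list, up to 3 genes with at least 20 CPM in 1 library and the largest differences of at least 2-fold, of which some markers and reference genes are given by count and some items are not reported here. VIM, KRT7, KRT8, KRT18, KRT19, EPCAM, CDH1, PDGFRA, CDH5, LUM, LYZ, ACTG1, POLR2A, IPO8, YWHAZ, SLC16A3, EGLN1, VEGFA and the pseudogenes were picked after their values were seen. Scaling (DESeq2 1.42.0 size factors, total counts, upper quartile), filter, pseudocount, rounding, exons and pseudogenes were varied. Exon sequences come from GENCODE 29 transcripts with the same identifier and exon length, and promoters from RefSeq.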

Additional observations from a re-analysis of the deposited data

How the results depend on the processing

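The median log2 ratio of the 10 enzyme genes stayed between -3.76 and -2.76 under 9 alternatives, and 8 or 9 genes were at least 2-fold lower under each. The ninth was GPI, with DESeq2 size factors and with either choice of exons on the untreated library, both added after seeing the data. With processed pseudogenes included, 1 gene (PKM) was at least 2-fold higher, and PGAM1 changed to -2.76. GPI was 0.56 from its fullest exonic region, -4.40 from the region with most untreated counts and -4.53 from its main pair of regions. Over all genes, 7430 were lower and 6903 higher at 1 CPM and equally without a filter, 1921 and 986 at 20 CPM, and 348 and 176 at 100 CPM. At 20 CPM, 50 genes of the 9 lists of glucose metabolism and HIF were compared, with 32 lower and 4 higher. Of all genes at that level, 36.0% were lower and 18.5% higher. Leaving out a library was not possible with 1 per group, and no paired analysis was possible because each group has 1 library. Depth limits ALDOA, PGAM1 and PKM, with 3 counts or fewer in the EMT-labelled library, to wide intervals.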

Other observations

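Among the processed pseudogenes of the enzymes, 3 picked ones were higher in the EMT-labelled library, but not all copies were. PKMP1 (hg19, chromosome 1 at 115078616 to 115080461, plus strand) held 87 counts in the EMT-labelled library and 12 in the untreated library, a log2 ratio of 3.19 (95% counting interval 2.32 to 4.20). GAPDHP46 (chromosome 1, 92580360 to 92581353, minus strand) had 61 and 34 counts, a log2 ratio of 1.18 (0.55 to 1.83), where GAPDH had -4.25. GAPDHP24 had 10 and 1, a log2 ratio of 3.66 (0.84 to 9.10). These 3 were picked after their values were seen, as pseudogenes with at least 10 counts in 1 library, and their values have no replicate check. Copies of TPI1 went the other way, with 2 summed counts in the EMT-labelled library against 13. Those of PGAM1 had 6 against 2.07.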
